A study of Homo sapiens with 18 samples.

Results

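The unmodified parental cells of the study, HEK293T, were described by their RNA alone. HEK293T is an established human embryonic kidney cell line that carries the early region E1 of adenovirus 5 and the large T antigen of SV40. The 3 parental RNA-seq libraries were chosen by their labels from the 18 samples of the series, and no library of another genotype was compared with them. They are named parental 1, 2 and 3 here. Per the labels, parental is the genotype given for CRISPR-Cas9 editing, the cells grew in DMEM with fetal bovine serum and antibiotics, and 1 µg of total RNA with a quality score above 9 went into each TruSeq library. The labels name no treatment, no vector and no clone. The deposited names of the libraries differ in form: those of parental 1 and parental 2 end in different numeric codes in the form of a date, and that of parental 3 has no such code. What the codes stand for is not stated, and no 2 libraries share one, so any effect of what they mark cannot be told apart from the spread between libraries. Whether the libraries came from separate cultures is not stated, so each SD below is the spread between these 3 libraries, which may be technical.

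The viral genes in this line act on well-known host proteins. E1A and T antigen bind the RB family, which frees E2F factors to switch on genes of DNA replication, and E1A also binds the acetyltransferases p300 and CBP. E1B also encodes a viral relative of BCL2 that blocks cell death. The deposited table holds human genes and no viral ones, so the levels of E1A, E1B and T antigen were not analysed here. The line was made from embryonic kidney, and its transcriptome has been discussed in the field for its mixture of kidney, neuronal and adrenal-lineage genes.

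The table listed 14177 genes, each above 1 CPM (the counts-per-million scale, on which 10000 CPM is 1% of a library) in at least 2 of the 6 RNA libraries of the series. A gene that is not in the table was therefore low in most libraries, and its level in the parental cells is not known. The libraries held 27418953, 22153291 and 29141652 reads in parental 1, 2 and 3, so 1 CPM stood for 22.2 to 29.1 reads and a count of 3 reads for 0.103 to 0.135 CPM. Counting error was small beside the differences between libraries. For genes from 10 to 100 CPM the median coefficient of variation was 22.5%, where counting alone gives 3.42%.

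In the mean of the 3 libraries 13672 genes reached 1 CPM, 9377 reached 10 CPM, 1687 reached 100 CPM and 42 reached 1000 CPM. In every library at once these numbers were 12699, 8454, 1233 and 22. The median gene had a mean of 21.6 CPM, and its value by library was 23.6, 19.5 and 19.5 CPM in parental 1, 2 and 3. The 10 genes with the most reads took 28.2% ± 1.29 of them (SD, n = 3). The 12541 nuclear protein-coding genes took 70.6% ± 1.15, and 1234 of these genes made up 50% of that share.

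Most of the reads outside nuclear protein-coding genes came from a few RNAs, and these differed between libraries. The 2 mitochondrial ribosomal RNAs took 17.1%, 20.7% and 24.7% of the reads in parental 1, 2 and 3. MT-RNR2, the large-subunit rRNA, led the whole table with 132336, 180292 and 204328 CPM. MT-RNR1, the small-subunit rRNA, had 38274, 26230 and 42592 CPM. The order of the libraries thus differed between these 2 RNAs, with parental 1 lowest for the first and parental 2 lowest for the second. CTD-2328D6.1, an annotated pseudogene of 0.432 kb on the X chromosome (positions 108297361 to 108297792 in the coordinates of the table), had 61289 and 54669 CPM in parental 1 and 2 and 237 CPM in parental 3. RN7SK, the noncoding RNA that holds the elongation factor P-TEFb inactive, had 23315, 16772 and 13586 CPM. RN7SL2, an RNA of the signal recognition particle, was highest in parental 1 with 6104 CPM and had 1060 and 1444 CPM in the other libraries. How reads from repeated copies of such RNAs were assigned is not given in the sources used here, so these levels are uncertain for the single locus.

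**Figure D1:**
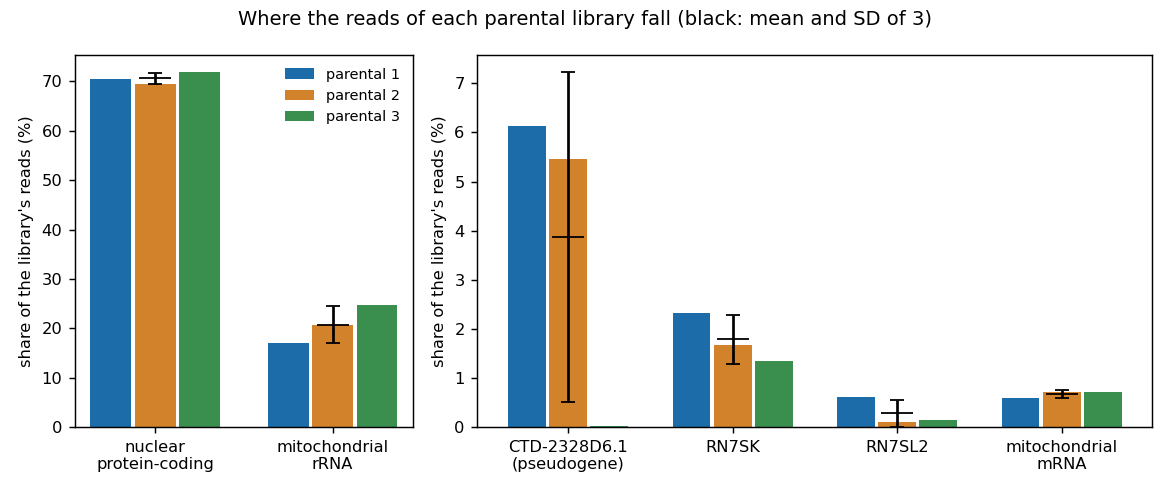
Share of reads per library (%, vertical axis) in 6 classes of RNA (horizontal axis), with 1 bar per parental library and the mean and SD of 3 in black; the scales of the panels differ. Nuclear protein-coding genes lie between 69.5% and 71.8% in all 3 libraries, while CTD-2328D6.1 is near 0 in parental 3 alone.

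Among nuclear protein-coding genes the 3 with the most reads were EEF2, RPS4X and EEF1A1, all of the translation machinery. EEF2, the elongation factor that moves the ribosome along the mRNA, had 3807, 3911 and 3686 CPM (3801 ± 113, SD, n = 3). The ribosomal protein gene RPS4X followed with 2438, 3582 and 2956 CPM. EEF1A1, which brings aminoacyl-tRNA to the ribosome, had 3094, 3556 and 1859 CPM. These levels are shares of reads and are not corrected for transcript length, since the table gives no usable transcript length. The next genes were NPM1 (nucleophosmin, a nucleolar histone chaperone) at 2480 ± 591 CPM, RPS6 at 2243 ± 1027, HSPA8 at 2113 ± 1680, GNB2L1 at 2023 ± 430, GAPDH at 1737 ± 395, RPS2 at 1721 ± 211 and NCL (nucleolin) at 1652 ± 724 (SD, n = 3). EEF2 differed 1.06-fold between its highest and lowest library, and HSPA8, the constitutive cytosolic chaperone, differed 8.37-fold. Many of these genes have processed pseudogenes of near-identical sequence, and how such reads were counted is not stated.

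The 13 mitochondrially encoded mRNAs took 0.593%, 0.717% and 0.730% of the reads. They have no introns, so their levels could be divided by gene length. MT-CO3, a subunit of cytochrome c oxidase, had the highest level per length at 2157 ± 869 CPM per kilobase (SD, n = 3). Its sister subunits MT-CO2 and MT-CO1 had 1378 ± 138 and 1267 ± 45.8 CPM per kilobase. Across libraries the values of MT-CO2 overlapped those of both others, while all values of MT-CO3 lay above those of MT-CO1. Within each library the order was MT-CO3, MT-CO2, MT-CO1. The margin of MT-CO2 over MT-CO1 was small in parental 1 and 2. MT-CO2 had 1256, 1350 and 1527 CPM per kilobase in parental 1, 2 and 3, and MT-CO1 had 1220, 1311 and 1271. The NADH dehydrogenase subunit MT-ND6, encoded on the light strand, was lowest at 39.9 ± 20.1 CPM per kilobase. MT-ND5 varied most, with 94.4, 227 and 50.8 CPM per kilobase in parental 1, 2 and 3. MT-ATP8 and MT-ATP6 overlap in the genome, so their reads cannot be fully told apart.

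By biotype, as the table gives it, 12554 genes were protein-coding, 455 antisense, 412 lincRNA and 358 pseudogenes. The median protein-coding gene had a mean of 26.5 CPM, against 2.05 CPM for antisense genes, 1.97 CPM for lincRNA genes and 2.20 CPM for pseudogenes. MALAT1, a nuclear-retained lincRNA, led its class with 814, 625 and 386 CPM. LINC00657, also known as NORAD, had 243, 294 and 236 CPM. TUG1, listed as antisense, had 180, 175 and 104 CPM. GAS5, a host gene of small nucleolar RNAs, had 569, 116 and 130 CPM, so parental 1 stood well above the other libraries. Noncoding classes were often highest in parental 1, which held for 347 of the 455 antisense genes and 305 of the 412 lincRNA genes, against 6069 of the 12554 protein-coding genes. The same held for 22 of 24 snRNA genes and 41 of 55 snoRNA genes. These classes were lower in level than protein-coding genes, and low genes as a whole were higher in parental 1. The 25th percentile over all genes was 6.93, 5.01 and 4.43 CPM in parental 1, 2 and 3, and the 90th was 109, 114 and 117 CPM. Of the 15 snRNA and snoRNA genes at 10 CPM or more, 14 were highest in parental 1. For antisense and lincRNA genes no share among genes of like level was worked out, so class and level are not separated. Whether the counting used strand is not stated, so reads of antisense genes and of their partners cannot be told apart.

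The 3 libraries ranked genes alike, with Spearman correlations across genes of 0.963 (parental 1 and 2), 0.950 (1 and 3) and 0.963 (2 and 3). Genes are not independent replicates, and these values are a description. Of all genes, 9.28% were at least 2-fold apart between parental 1 and 2, 15.3% between 1 and 3, and 7.65% between 2 and 3. The common biological coefficient of variation, estimated by edgeR from the whole reads, was 0.361, and its trend ran from 0.531 at 1 CPM to 0.264 at 100 CPM and 0.30 at 1000 CPM. Levels as a whole were shifted a little between libraries. The median gene lay 0.14 above its 3-library mean in parental 1 on the log2 scale, 0.05 below it in parental 2 and 0.08 below it in parental 3.

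Of the 9377 genes with a mean of at least 10 CPM, 1696 (18.1%) differed by more than 2-fold between their highest and lowest library on the log2(CPM + 1) scale, and 327 stayed within 1.1-fold. More than 4-fold separated the libraries for 124 genes, of which 104 were highest in parental 1. That number fell to 18 without parental 1 and to 57 without parental 3, and was 102 without parental 2. After CTD-2328D6.1, the widest spread belonged to FOS and EGR1, immediate early transcription factor genes. FOS had 51.9, 3.34 and 0.824 CPM in parental 1, 2 and 3. EGR1 had 56.3, 8.67 and 0.755 CPM. FOSB, a partner of JUN like FOS, had 40.5, 2.57 and 1.27 CPM. All 3 were highest in parental 1 and lowest in parental 3. The small nuclear and Cajal body RNAs RNU2-64P, SCARNA6, SCARNA5 and RNU4-2, the pseudogene ASNSP1 and RMRP, the RNA of RNase MRP, completed the 10 genes with the widest spread. RNU2-64P had 185, 16.8 and 7.52 CPM, and RMRP had 23.6, 0.677 and 10.8 CPM.

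At the other end, XPNPEP3, a mitochondrial aminopeptidase gene, had 69.4, 69.1 and 69.4 CPM, the narrowest spread of the 9375 genes ranked. TMEM245 (72.4, 72.7 and 72.1 CPM), STXBP2, CHML, SP4, ZBED4, GTF2F2, MRPS31, PRMT2 and ACPL2 followed. These genes were picked by that order, so their closeness describes these 3 libraries and no more.

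Genes in common use as references for RNA measurement differed widely in spread. Of 30 such genes, 8 differed by more than 2-fold between libraries in CPM. Of the 9377 genes at 10 CPM or more, 18.1% did so on the log2(CPM + 1) scale. Compared with up to 200 genes of like level each, 4 lay among the lowest 25% by SD and 12 among the highest 25%. The genes with the most reads, such as GAPDH and RPL13A, had fewer comparison genes, and most of these were lower in level. GAPDH, a glycolytic enzyme, had 1610, 1420 and 2180 CPM. ACTB, cytoplasmic actin, had 937, 1091 and 1825 CPM, a 1.95-fold range. Both were highest in parental 3. TBP, the TATA-binding protein, had 39.6, 29.4 and 31.5 CPM, and HPRT1, of purine salvage, had 58.9, 64.3 and 47.2 CPM. B2M, the light chain of MHC class I, had 103, 132 and 146 CPM. IPO8, an importin, varied least of the 30 with 74.6, 77.3 and 70.1 CPM, and SNRPD3, a core spliceosome protein, varied most with 114, 456 and 351 CPM.

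**Figure D2:**
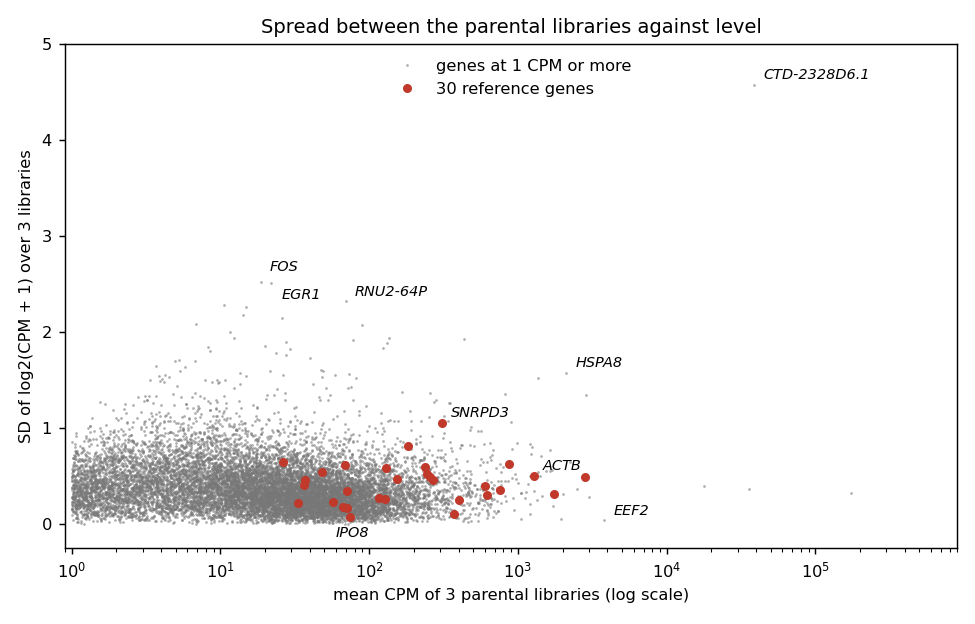
SD of log2(CPM + 1) over the 3 parental libraries (vertical axis) against mean CPM (horizontal log axis), with 1 grey point per gene at 1 CPM or more and 30 reference genes in red. CTD-2328D6.1 lies far above the other genes of its level. FOS and EGR1 lie far above most genes of theirs, with a few such as FOSB close below. IPO8 and EEF2 lie near the bottom, and ACTB and SNRPD3 lie higher.

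The lineage of HEK293T was read from 15 lists of marker genes. Of their 263 entries, 127 were in the table and 109 reached 1 CPM in every library. Of all 14177 genes, 12699 did so, with a median of 21.6 CPM.

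Early renal genes were present and genes of the mature nephron were mostly not in the table. Of 22 nephron progenitor and renal transcription factor genes, 15 were in the table with a median of 8.25 CPM, and 13 reached 1 CPM in every library. EYA1, a transcriptional coactivator of the early metanephric mesenchyme, had 26.1, 30.5 and 19.6 CPM, and SALL1, a zinc finger gene of the same tissue, had 31.1, 31.8 and 33.7 CPM. SALL1 was steady at 32.2 ± 1.33 CPM (SD, n = 3), and its libraries differed less than those of its neighbour in level EYA1. SIX2, which keeps nephron progenitors undifferentiated, had 7.59, 5.37 and 24.1 CPM, so parental 3 stood above both others. CITED1, another progenitor gene, had 13.4, 17.9 and 29.3 CPM and was also highest in parental 3. WT1, which acts in progenitors and podocytes, had 4.67, 5.33 and 10.4 CPM, again highest in parental 3. LHX1 was low at 1.86, 2.93 and 2.26 CPM. PAX2, a defining gene of the renal lineage, was at 1.13, 1.13 and 0.721 CPM, or 31, 25 and 21 reads. PAX8, OSR1, HNF4A, CDH16 and TFAP2B were among the members not in the table.

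Of 11 podocyte genes 6 were in the table, led by PODXL, a sialomucin of the podocyte surface, at 35.9, 64.4 and 26.9 CPM. The slit diaphragm gene NPHS1 was not in it. Of 20 genes of the differentiated tubule 5 were in the table, and 2 reached 1 CPM in every library, or 4 without parental 3. LRP2, which encodes the endocytic receptor megalin, had 30.6, 39.0 and 22.8 CPM, and the water channel gene AQP3 had 3.36, 4.11 and 2.51 CPM. CUBN, the partner of megalin, had a mean of 0.953 CPM. The transporter genes SLC34A1, SLC12A1 and SLC12A3, the uromodulin gene UMOD and the aquaporin genes AQP1 and AQP2 were not in the table. The labelled cell type, embryonic kidney cells, was thus matched by EYA1, SALL1, CITED1 and SIX2, with PAX2 near 1 CPM and PAX8 not listed.

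Neuronal genes were also found. Of 25 neuronal genes 16 were in the table with a median of 15.4 CPM, and 13 reached 1 CPM in every library. UCHL1, a neuronal deubiquitinase, had 100, 101 and 140 CPM. The neurofilament genes stood beside it, with NEFL, the light chain, at 65.3, 113 and 105 CPM. NEFM, the medium chain, had 62.3, 206 and 60.4 CPM, so parental 2 stood above both others. INA, the filament protein alpha-internexin, had 32.8 CPM in parental 2 and 15.3 and 14.2 CPM in parental 1 and 3. NCAM1, a neural adhesion molecule, was even across libraries with 40.7, 41.3 and 34.3 CPM. STMN3, of the stathmin family, had 19.4, 28.4 and 14.9 CPM. The heavy neurofilament gene NEFH, the axonal growth gene STMN2, the neuronal tubulin TUBB3 and the postmitotic neuron markers RBFOX3 and SNAP25 were not in the table.

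Of 20 neural crest and sympathoadrenal genes 10 were in the table. SNAI2, a zinc finger factor of migrating crest cells, had 37.3, 41.0 and 83.3 CPM. TFAP2A, a crest specifier, had 28.8, 38.3 and 16.8 CPM, and GATA2 had 22.3, 16.5 and 31.5 CPM. HAND1 had 7.99, 14.2 and 13.3 CPM, TWIST1 a mean of 11.7 ± 2.13 CPM, and HAND2, a sympathetic neuron factor, 3.17, 3.39 and 3.12 CPM. The factors were present, but defining genes of the catecholamine line were not in the table, among them PHOX2A, the tyrosine hydroxylase gene TH and the dopamine beta-hydroxylase gene DBH. Of 14 adrenal cortex genes FDX1 alone was in the table, at 19.3, 12.5 and 21.9 CPM. FDX1 encodes a mitochondrial electron carrier that many tissues make. NR5A1, the master factor of the adrenal cortex, and the steroid enzymes were not in the table.

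Of 16 genes of pluripotent cells 6 were in the table. LIN28B, which blocks let-7 maturation in embryonic cells (6:105404923-105531207), had 102, 137 and 148 CPM and was the only one of the 6 above 100 CPM in every library. DNMT3B, a de novo DNA methyltransferase, had 30.4, 49.8 and 50.1 CPM. SOX2 had 5.36, 9.25 and 10.3 CPM, and SALL4 had 1.13, 0.632 and 0.206 CPM. POU5F1, NANOG, LIN28A and ZFP42 were not in the table.

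Epithelial and mesenchymal genes stood side by side. Of 20 epithelial genes 10 were in the table, and of 14 mesenchymal genes 9, with medians of 13.7 and 56.9 CPM. DSP, a desmosome plaque protein, had 156, 235 and 173 CPM, and TJP1, of tight junctions, had 115, 151 and 134 CPM. The keratin gene KRT18 had 33.4, 35.4 and 47.9 CPM. Its partner KRT8 had 8.28, 4.60 and 21.5 CPM, though both genes overlap in the coordinates of the table and share some sequence. CDH1, epithelial cadherin, was low with 5.07, 12.1 and 4.19 CPM, and EPCAM had 1.39, 2.44 and 1.51 CPM. CDH2, neural cadherin, had 117, 147 and 60.9 CPM, so its lowest library lay above the highest library of CDH1. VIM, the mesenchymal filament vimentin, had 487, 528 and 821 CPM. FOXC1, a forkhead gene of mesenchyme, had 278, 301 and 173 CPM, and FN1, fibronectin, had 75.9, 83.1 and 37.9 CPM. ZEB1, a repressor of epithelial genes, had 54.5, 76.1 and 40.2 CPM.

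Markers of cell types not expected in the culture were mostly not listed or were low. Of 12 fibroblast genes 6 were in the table, and the collagen gene COL1A1 had 10.9, 12.6 and 11.0 CPM. Of 16 blood genes 5 were in the table, with a summed level of 7.48, 4.38 and 8.00 CPM in parental 1, 2 and 3, and PTPRC, the pan-leukocyte CD45 gene, was not in it. Of 10 endothelial genes FLT1 alone was in the table, at 25.5, 20.9 and 11.6 CPM, while PECAM1 and CDH5 were not. Of 12 liver genes 2 were in the table. CPS1, the first enzyme of the urea cycle, had 54.4, 54.1 and 52.8 CPM, and FOXA1 had 9.70 ± 1.55 CPM, while ALB was not listed.

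The HOX genes, which give position along the body axis, were nearly complete. Of 39 genes 34 were in the table, all 34 reached 1 CPM in every library and 17 reached 10 CPM. Of all 14177 genes of the table, 12699 and 8454 did so. HOXB9 led with 203, 219 and 137 CPM, followed by HOXD13 with 58.1, 95 and 79.5 CPM and HOXA9 with 52.2, 68.5 and 66.3 CPM. HOXA10 had 73.0, 47.3 and 48.1 CPM, and HOXA5 had 75.2, 38.5 and 40.3 CPM. The posterior paralogue groups 9 to 13 (14 genes) summed to 570, 624 and 473 CPM. Groups 5 to 8 (11 genes) summed to 214, 167 and 147 CPM, and groups 1 to 4 (9 genes) to 116, 90.7 and 61.4 CPM. The order of these sums was the same in all 3 libraries, with no correction for gene length. HOXB1, HOXC12, HOXD1, HOXD4 and HOXD12 were not in the table.

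**Figure D3:**
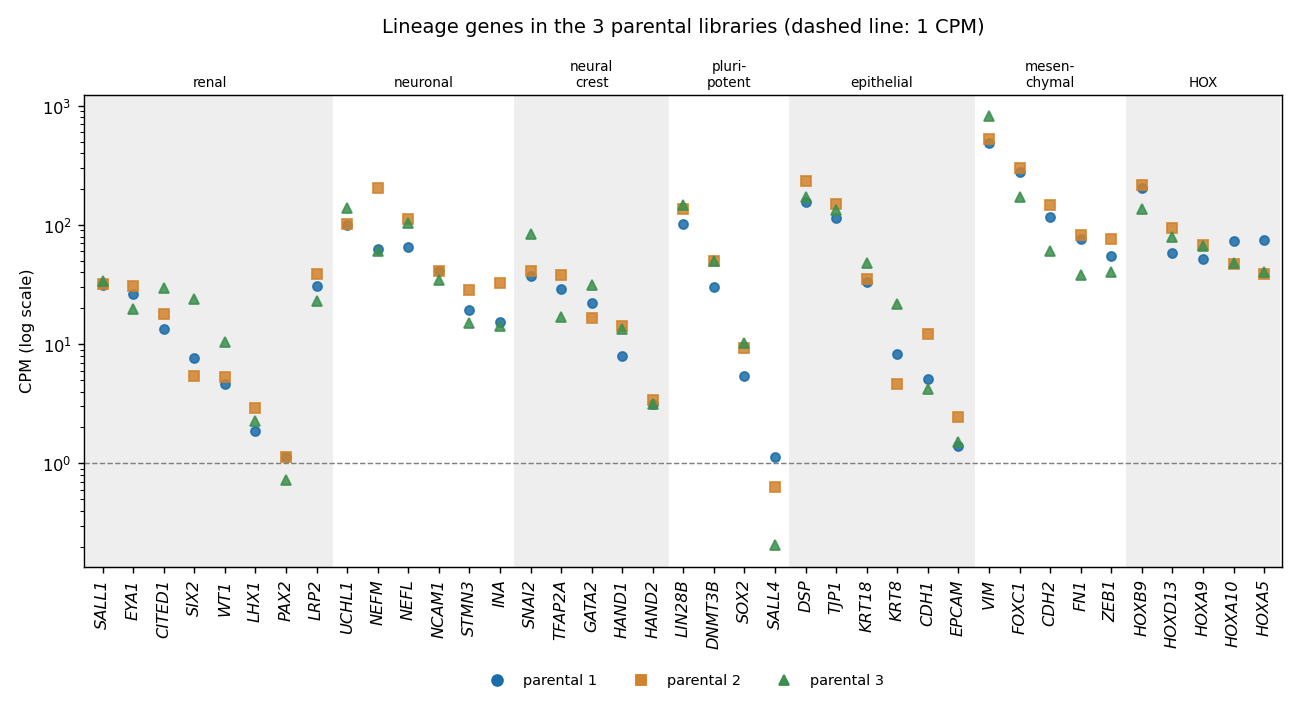
CPM (log axis) of lineage genes in the 3 parental libraries, 1 symbol per library, grouped by lineage along the horizontal axis; the dashed line marks 1 CPM. VIM is the highest gene shown, CDH2 lies above CDH1 in each library, and PAX2 and SALL4 lie near or below 1 CPM.

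The host genes tied to viral transformation were covered by 14 lists. Of their 268 entries 236 were in the table and 230 reached 1 CPM in every library. Of all 14177 genes of the table, 12699 did so.

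All 10 genes of the RB family and the CDK inhibitors reached 1 CPM in every library. RB1, which encodes the retinoblastoma protein (13:48877887-49056122), had 85.6, 80.5 and 63.9 CPM. Its relatives RBL2 (p130) and RBL1 (p107) had 79.9, 87.0 and 52.7 CPM, and 72.7, 50.2 and 45.8 CPM. The family was thus present at like levels, with parental 3 lowest for each. CDKN2A, which encodes p16 and ARF and is silenced in many cell lines, had 78.4, 143 and 112 CPM, the highest mean of the list at 111 ± 32.4 CPM (SD, n = 3). The table does not separate its p16 and ARF transcripts. CDKN1B (p27) had 53.4, 35.0 and 27.5 CPM. CDKN1A, the p21 gene, had 36.1, 16.2 and 9.64 CPM, a 3.74-fold range with the highest value in parental 1.

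All 16 E2F factor genes and partners and all 12 cyclin and CDK genes reached 1 CPM in every library. MYBL2, which encodes the cell cycle factor B-MYB, had 240, 199 and 257 CPM, and FOXM1 had 109, 113 and 146 CPM. E2F1 had 58.6, 37.5 and 48.1 CPM, and its dimer partner TFDP1 had 99.5, 94.7 and 102 CPM. CCNA2, the S-phase cyclin A2, had 157, 186 and 202 CPM, and the phosphatase gene CDC25A had 180, 128 and 194 CPM. CDK6 was even across libraries with 130, 137 and 131 CPM. CCND2 had 160 ± 24.6 CPM.

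All 30 genes of the E2F target list reached 10 CPM in every library, and 16 reached 100 CPM, against 8454 and 1233 of the 14177 genes of the table. The list median was 130 CPM, and its sum was even at 4972, 5114 and 4969 CPM. The replicative helicase led it. MCM7 (7:99690351-99699563) had 425, 417 and 438 CPM, MCM4 had 389, 424 and 480 CPM, MCM2 had 316, 302 and 395 CPM, and MCM3 had 348, 353 and 284 CPM. PCNA, the sliding clamp of DNA polymerase, had 348, 258 and 240 CPM, and MCM6 had 135, 146 and 179 CPM.

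The promoters of this list are shown because they hold the letters through which E2F is known to act. Of the members whose matches all lay before the gene start, 3 of the most highly expressed are printed as the 250 bases before the RefSeq start (build GRCh38.p14, 5′ to 3′ on the gene's strand). Capitals mark the matches to TTTCCCGC, TTTCGCGC, TTTGCCGC or TTTGGCGC on either strand. The windows are chr7:100101398-100101647 for MCM7, chr20:5126623-5126872 for PCNA and chr2:135876444-135876693 for MCM6, all on the minus strand and in another build than the table.
MCM7: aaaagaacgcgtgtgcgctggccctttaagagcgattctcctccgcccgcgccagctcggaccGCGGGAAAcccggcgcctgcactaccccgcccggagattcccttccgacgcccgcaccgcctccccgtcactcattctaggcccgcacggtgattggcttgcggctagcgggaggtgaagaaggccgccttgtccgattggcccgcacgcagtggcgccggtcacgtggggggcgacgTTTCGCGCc
PCNA: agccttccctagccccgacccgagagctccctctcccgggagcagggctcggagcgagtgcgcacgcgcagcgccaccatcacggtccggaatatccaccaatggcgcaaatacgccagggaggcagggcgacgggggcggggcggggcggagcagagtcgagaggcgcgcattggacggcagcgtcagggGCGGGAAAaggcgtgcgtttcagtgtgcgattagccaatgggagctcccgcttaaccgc
MCM6: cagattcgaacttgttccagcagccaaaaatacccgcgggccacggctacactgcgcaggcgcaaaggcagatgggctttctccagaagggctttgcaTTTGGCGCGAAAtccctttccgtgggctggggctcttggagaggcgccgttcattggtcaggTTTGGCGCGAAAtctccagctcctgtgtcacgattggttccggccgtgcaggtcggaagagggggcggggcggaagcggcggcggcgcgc
MCM7 held 2 such matches, PCNA held 1 and MCM6 held 4, which lie as 2 pairs that overlap on opposite strands. Of the 29 members listed as protein-coding, 24 matched a RefSeq promoter window of 300 bases (250 before to 50 after the start), and 14 of these (58.3%, 95% Wilson interval 38.8 to 75.5%) held at least 1 match. Over all 12541 nuclear protein-coding genes of the table outside the Y chromosome, 10193 matched a window and 557 (5.46%) held the letters. The list was made of known E2F targets, so the share describes the list and is not an independent result. The interval covers counting error only. TATAAA, the letters of a TATA box, stood in 1 of the 24 windows and in 5.22% of all windows, and TTTGAA, the core of the cell cycle element CHR, in 1 of 24 and 9.25%. No searched motif contains another. A match of letters is a description and not a bound site.

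All 24 genes of a list of the damage response and its regulators reached 1 CPM in every library, and 17 reached 10 CPM in every library. Of all 14177 genes of the table, 12699 and 8454 did so. Of the 24, 16 were highest in parental 1, against 43.9% of the 9377 genes at 10 CPM or more. The list also holds lower genes, so that share is of an unlike set. Of the 24, 14 were lowest in parental 3, and the share over all genes was not worked out. MDM2, which encodes a ubiquitin ligase, had 252, 175 and 200 CPM. USP7, which encodes a deubiquitinase of MDM2, had 156, 210 and 266 CPM. CCNG1, which encodes cyclin G1, was higher with 418, 467 and 267 CPM. PMAIP1, the gene of the killer protein NOXA, had 228, 141 and 78.2 CPM. PMAIP1 was thus highest in parental 1 and lowest in parental 3, and USP7 the reverse.

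The partners of the viral proteins nearly all reached 1 CPM in every library, as did 12699 of the 14177 genes of the table. All 15 coactivator and chromatin genes of the E1A list reached 10 CPM in every library, against 8454 of the 14177 genes. EP300 (p300) had 101, 96.7 and 78.7 CPM, and CREBBP (CBP) had 114, 88.8 and 84.2 CPM. The ATPase genes RUVBL1 and RUVBL2 had means of 163 ± 34.5 and 150 ± 34.4 CPM. Of 15 partners of E1B and early region 4 products, PRKDC, the catalytic subunit of DNA-dependent protein kinase, led with 812, 567 and 605 CPM. DAXX had 64.1, 55.1 and 61.4 CPM, and PML, which forms nuclear bodies, had 15.5, 16.4 and 22.3 CPM. SP100, another protein of these bodies, was the exception at 1.13, 0.542 and 1.2 CPM. All 20 partners of the SV40 T antigens reached 1 CPM in every library. HSPA8, the HSC70 chaperone bound by the J domain of T antigen, had 456, 2068 and 3815 CPM out of the list's summed level of 1856, 3465 and 5395 CPM. BUB1, a mitotic kinase, had 98.9, 162 and 167 CPM, and RPA2, of the single-strand binding complex, had 183, 140 and 152 CPM.

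Of 18 BCL2 family genes 15 were in the table, led by the survival gene MCL1 at 151, 135 and 200 CPM and PMAIP1. The killer gene BAX had 40.7, 37.3 and 49.0 CPM. BCL2A1, BOK and BIK were not in the table. Among the telomere genes DKC1, the dyskerin gene, had 214, 201 and 260 CPM. TERT, the catalytic subunit of telomerase, had 5.40, 1.40 and 1.75 CPM, or 148, 31 and 51 reads, so parental 1 stood above both others. MYC had 165, 125 and 169 CPM, while MYCN was not in the table. NRAS had 128, 146 and 179 CPM, and AKT1 a mean of 81.7 ± 8.83 CPM.

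Of 20 genes that sense viral nucleic acid 10 were in the table, 8 of them at 1 CPM in every library. The cytosolic DNA sensor CGAS, its adaptor STING1, the DNA sensors IFI16, AIM2 and ZBP1, the RNA sensor regulator DHX58 and the Toll-like receptor genes TLR3, TLR7, TLR8 and TLR9 were not in the table. ADAR, an RNA-editing enzyme, had 264, 247 and 278 CPM. EIF2AK2, the kinase PKR, had 99.4, 151 and 109 CPM, and the signalling factor IRF3 had 34.8, 36.6 and 40.9 CPM. SAMHD1, a dNTPase that restricts retroviruses, had 69.4, 76.2 and 91.5 CPM, and TBK1, the kinase that activates IRF3, had 25.2, 46.9 and 48.4 CPM. Of 33 interferon-stimulated genes 19 were in the table with a median of 9.27 CPM. The highest were those of antigen presentation, among them B2M, HLA-C at 140, 164 and 130 CPM and HLA-B at 109, 81.1 and 63.0 CPM. Reads of the HLA genes depend on the alleles of the line and on shared sequence. MX1, OAS1, OAS2, RSAD2, IFIT2, IFIT3 and BST2 were not in the table.

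HEK293T is widely used to make viral vectors, and 23 of 26 genes of virus and vector receptors were in the table, 22 of them at 1 CPM in every library. CXADR, the coxsackievirus and adenovirus receptor, had 77.8, 88.2 and 72.1 CPM. KIAA0319L, the receptor of adeno-associated virus, had 77.0, 60.8 and 49.5 CPM. DSG2, a receptor of other adenoviruses, had 268, 269 and 149 CPM. RPSA, the laminin receptor and a ribosomal protein, led the list at 596, 329 and 474 CPM. The amino acid transporter gene SLC7A1 had 222, 164 and 112 CPM. SLC20A1, a phosphate transporter and retrovirus receptor, had 104, 79.4 and 127 CPM. TFRC, the transferrin receptor, had 86.0, 240 and 222 CPM and so was lowest in parental 1. ITGB3, CD4 and TMPRSS2 were not in the table.

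**Figure D4:**
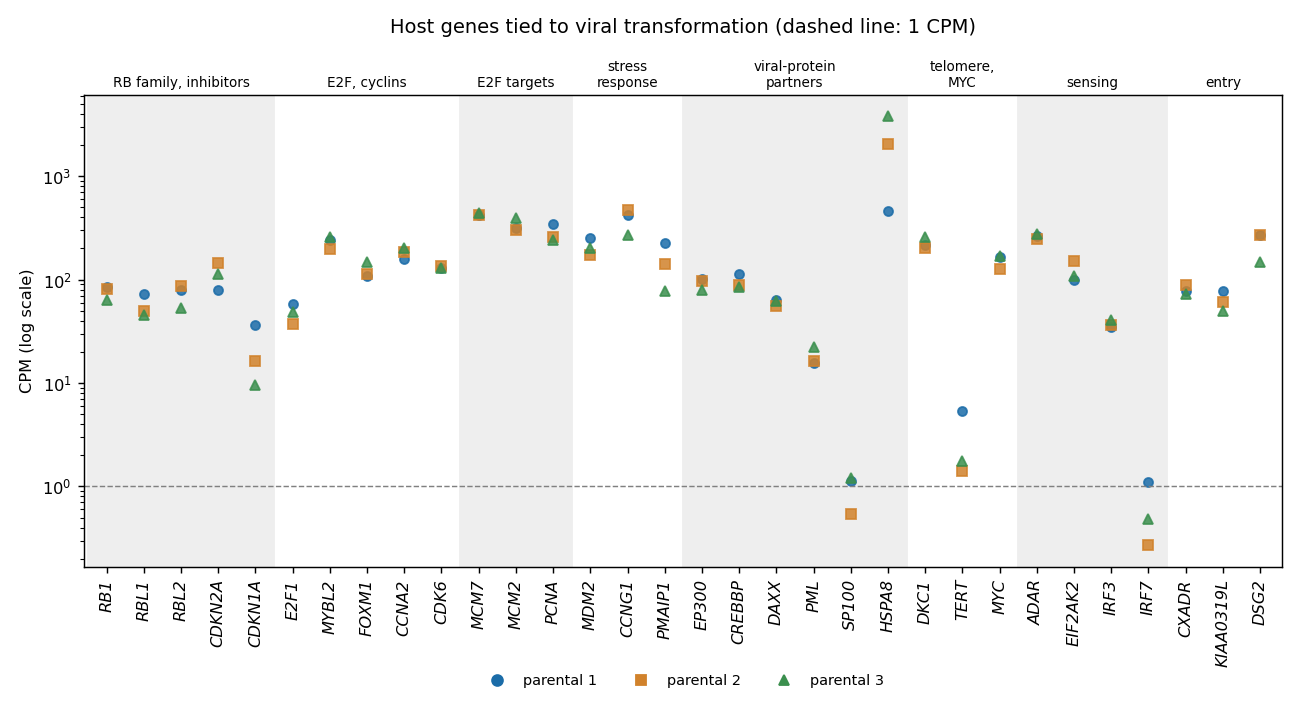
CPM (log axis) of host genes tied to viral transformation in the 3 parental libraries, 1 symbol per library, grouped by role along the horizontal axis; the dashed line marks 1 CPM. HSPA8 reaches the highest level and spans 8.37-fold, MCM7 is nearly identical across libraries, and TERT, SP100 and IRF7 are the lowest.

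Across chromosomes the median level of genes at 1 CPM or more was 4.53 on the log2 CPM scale. Chromosome 19 was lowest at 3.73 (926 genes), and its library medians were 3.95, 3.47 and 3.63 in parental 1, 2 and 3. It was the lowest chromosome in the mean and without each library in turn. The zinc finger genes with ZNF symbols, a family clustered on this chromosome, had a median of 3.10 there (185 genes), against 4.08 for the other genes of chromosome 19 (741 genes) and 4.00 for ZNF genes elsewhere (243 genes). Chromosome 13 had the highest nuclear median at 4.86 (238 genes), but its lead over chromosomes 1 (4.79), 21 (4.76) and 5 (4.75) was smaller than the spread of its own library medians, 0.19 (SD, n = 3). With only genes at 10 CPM or more, the lead of chromosome 13 over chromosome 19 shrank from 1.13 to 0.34. UBR7, the gene the series is about (14:93673401-93695561), had 55.0, 62.2 and 62.2 CPM. No diploid reference was measured, so these levels give no copy number.

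**Figure D5:**
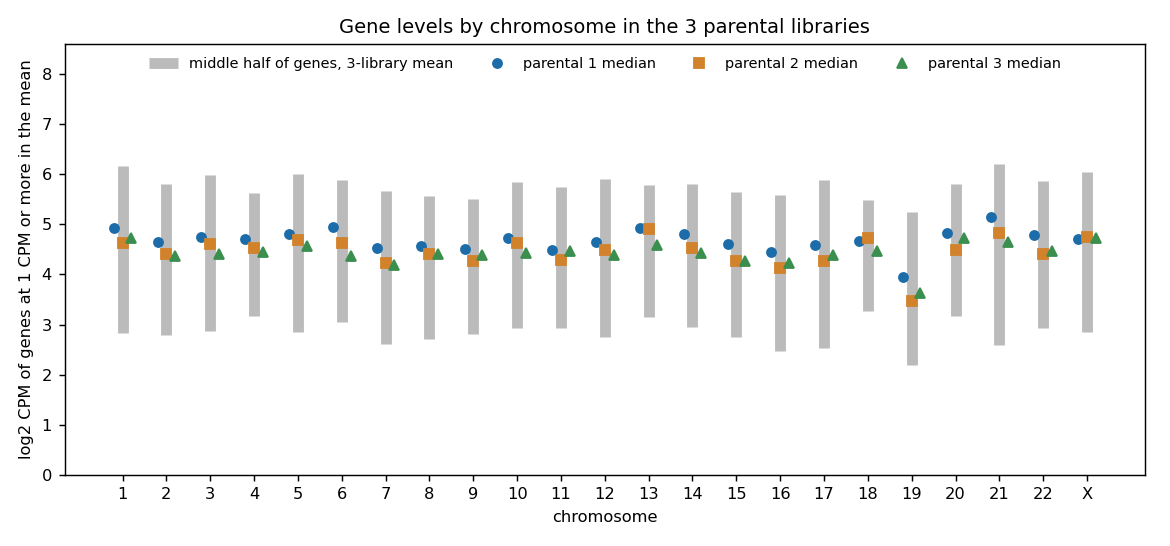
Median log2 CPM (vertical axis) of genes at 1 CPM or more in the mean, by chromosome and library, with the grey bar holding the middle 50% of genes by their 3-library mean. Chromosome 19 is lowest in each library, with medians of 3.95, 3.47 and 3.63, and no other chromosome has a median below 4.14.

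The libraries also differed by region. Of 287 bins of 10 Mb with at least 10 genes, 10 had a library more than 0.3 log2 units from the 3-library mean after the shift of all genes was taken out. In 8 of these bins parental 3 was the low library. On chromosome 6 the 3 neighbouring bins from 80 to 110 Mb lay 0.37, 0.31 and 0.32 below the mean in parental 3. In them 29 of 36, 20 of 25 and 22 of 33 genes were lowest in parental 3. The bins were picked by their deviation, so these gene counts restate it and add no support. On chromosome 13 the bins from 70 to 80, 100 to 110 and 110 to 120 Mb lay 0.35, 0.31 and 0.39 below the mean in parental 3. On chromosome 18 the bin from 20 to 30 Mb lay 0.35 below the mean in parental 3. The bin from 20 to 30 Mb holds CDH2, which had 60.9 CPM in parental 3 against 117 and 147 CPM. The bin from 180 to 190 Mb of chromosome 5 lay 0.45 below the mean in parental 3, where GNB2L1, a ribosome scaffold gene of that bin, had 2051 CPM and lay between the other libraries. Differences in copy number between the libraries were not tested.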

How the data were processed

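RNA of parental HEK293T cells was measured by RNA-seq in 3 libraries. Per the submitters' processing notes, TopHat2 2.1.0, HTSeq 0.6.1 and edgeR were among the tools used, with no role or setting given for each. Per the file headers, the deposited table gives CPM for each library, which the authors made by scaling the reads of a gene to the library total and by nothing else that the values show. Its coordinates are of the type of build hg19 and its gene IDs are those of Ensembl. In each library all values were integer multiples of a common step (tolerance 1e-06), from which the reads of each gene and the totals were recovered. Reads of genes not in the table made up 0.272%, 0.167% and 0.180% of parental 1, 2 and 3. The 8 chromatin files of the series were not used.

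A level is the mean of the 3 libraries with its SD, and spread is the SD of log2(CPM + 1). Since there is 1 group, nothing was tested. The biological coefficient of variation came from edgeR 4.0.16 in R 4.3.3 on the recovered reads, and was checked on simulated data. Other computations used Python 3.11.15, numpy 2.4.6, pandas 2.3.3 and scipy 1.17.1. DESeq2 1.42.0 gave size factors for an alternative. Named genes were the 15 with the most reads, the 10 protein-coding genes with the most, the 10 widest and 10 narrowest in spread at 10 CPM or more, and in each list the 5 highest members, its defining genes and the members not in the table. A few other members, such as PCNA, MCM6 and IRF7, were picked for naming once their values were known. The genes and lists were chosen with earlier results of these data known. List members were looked up by current and older symbols, and of the 167 not found, 166 had a gene ID and 0 of these IDs were in the table. Genes of the Y chromosome, XIST and some other genes that the rule names are not reported here. Promoter windows came from RefSeq (GRCh38.p14), matched by symbol.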

Additional observations from a re-analysis of the deposited data

How the results depend on the processing

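No paired analysis was possible because a single group of libraries is described and no groups are compared. The planned levels per kilobase were not run for nuclear genes, since no transcript lengths were at hand. Counts of genes at each level stayed within 1.5 times under TMM and DESeq2 scaling and without any 1 library. The common coefficient of variation was 0.361, and 0.343 and 0.342 under TMM and DESeq2 scaling. It was 0.315, 0.415 and 0.329 without parental 1, 2 and 3 in turn. Counts of members at 1 CPM in every library, summed over the lists, stayed within 1.5 times under TMM scaling and without any 1 library. These list counts were not made under DESeq2 scaling. Rescaling to nuclear reads, and, as added after seeing the data, also without CTD-2328D6.1, RN7SK, RN7SL2 and a gene annotated on the Y chromosome, raised the median gene to 27.4 and 29.8 CPM and the share of nuclear protein-coding genes to 90.3% and 97.9%, and lowered the share of the 10 genes with the most reads to 9.90% and 3.28%. The second of these gave 2570 genes at 100 CPM or more. These changes follow from the removed reads. With genes at 10 CPM or more, chromosome 13 lay 0.34 above chromosome 19 on the log2 scale. Bins of 5 Mb gave 20 shifted bins and bins of 20 Mb gave 4. The median SD of log2 levels was 0.314 in genes at 10 CPM, 0.341 at 1 CPM and 0.291 at 50 CPM, and 0.242 to 0.282 without 1 library. Over the 30 reference genes it was 0.431, and 0.275 to 0.345 without 1 library. Genes over 4-fold apart numbered 234 at 1 CPM and 51 at 50 CPM, and 18 to 102 without 1 library. On the gene strand alone 37.5% of E2F target windows held the letters. The cause of these differences was not tested. Of the renal tubule genes 4 reached 1 CPM without parental 3. Of the 156 list members named by the rule, none moved by more than its SD under TMM or DESeq2 scaling. With nuclear reads only 93 moved and 58 did not, and without the abundant noncoding RNAs as well 120 moved and 31 did not, the mitochondrial mRNAs having no value there. Low members such as PAX2, SALL4 and IRF7 rest on few reads (25 of PAX2 in parental 2).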

Other observations

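Gene groups outside the lineage and transformation lists separated the 3 parental libraries. These lists were chosen after the values were seen, so their counts are a description. Of 20 genes of the amino acid and integrated stress response, which cells switch on through the factor ATF4, 19 were highest in parental 1, and 18 were with TMM scaling, against 43.9% of the 9377 genes at 10 CPM or more. The median range between libraries was 2.1 on the log2 scale, against 0.60 over all genes. ASNS, asparagine synthetase, had 507, 191 and 75.9 CPM in parental 1, 2 and 3. TRIB3, a target of ATF4, had 113, 13.5 and 19.5 CPM. CHAC1, which degrades glutathione, had 48.6, 8.40 and 2.95 CPM, and DDIT4, an inhibitor of mTORC1, had 248, 142 and 18.3 CPM. ATF4 itself was closer across libraries with 397, 338 and 321 CPM, and ATF5 was the exception with 6.46, 6.32 and 12.1 CPM. Of 20 immediate early genes, some of them below 10 CPM, 13 were highest in parental 1, and 12 were with TMM scaling. Of the 12554 protein-coding genes 6069 were highest in parental 1. JUN had 387, 198 and 191 CPM.

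Cytosolic and mitochondrial chaperone genes showed the opposite order of libraries. Of 20 such genes 17 were in the table, 16 of them highest in parental 3 and 16 lowest in parental 1, and 16 were highest in parental 3 with TMM scaling too. Of the 9377 genes at 10 CPM or more, 31.2% were highest in parental 3. HSPA1B, a heat-inducible HSP70 gene that shares nearly all its sequence with a neighbouring copy, had 23.3, 57.2 and 318 CPM. HSP90AA1 had 367, 708 and 1610 CPM, and HSPD1, the mitochondrial chaperonin, had 541, 651 and 1197 CPM. HSF1, the factor that drives many of these genes, was the exception with 79.8, 35.6 and 64.1 CPM. The list summed to 3403, 6718 and 11077 CPM, of which HSPA8 made up 456, 2068 and 3815 CPM. What set the libraries apart was not tested. The labels describe growth and handling alike for the 3, while the deposited names differ in their codes and in other parts.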
